A study of Mus musculus with 14 samples.

Results

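The respiratory chain is described here gene by gene in primary microglia, the brain's own macrophages, of TIMP2 KO and WT mice. Members were chosen by a rule on gene names, set with earlier results of these data known. They are protein-coding genes for subunits of complex I (Nduf), complex II (Sdh), complex III (Uqcr) and complex IV (Cox4 to Cox8). The electron carriers Cyc1 and Cycs and the 13 protein-coding genes of the mitochondrial chromosome, 2 of which belong to complex V, are also members. The name rule found 82 of the 49315 genes in the table, and 76 of these passed the filter on low counts, 64 nuclear and 12 mitochondrial, among 15700 genes that passed in all. The 6 that did not pass were Cox4i2, Cox7b2, Cox8b, Cox8c, Ndufa4l2 and mt-Atp8. The acyl carrier subunit of complex I, Ndufab1, has a name outside the rule and is not a member.

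All mice were C57BL/6 pups of postnatal day 6 to 7, untreated, and the KO line carries a global deletion, so that it does not single out the TIMP2 made by microglia. There were 7 libraries per genotype, each from forebrains of 5 pups of both sexes pooled into one culture of CD11b-selected cells. Timp2 (120 to 129 CPM, counts scaled by library size, in KO and 398 to 495 CPM in WT) was lower in every KO library than in any WT library, with a log2 fold change of −1.92 (SE 0.0464, Benjamini-Hochberg adjusted p = 1.53e-12 in edgeR's quasi-likelihood fit), and part of its reads therefore remained in KO.

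Between 38875344 and 48070236 reads were counted per library. The 14 microglia markers were all detected, with a summed level of 13000 to 15500 CPM in KO and 12700 to 14900 CPM in WT. Markers of other cell types were also detected, each list at a summed level below that of the microglia markers. The 12 astrocyte markers summed to 35.2 to 180 CPM in KO and 40.7 to 331 CPM in WT, and all 12 had a lower mean in KO (median log2 fold change −0.68, 0 past the threshold). The 12 neuron markers summed to 26.9 to 62.5 CPM and 34.3 to 70.0 CPM. The 9 oligodendrocyte lineage markers that passed the filter (Mog did not) summed to 146 to 189 CPM in KO and 152 to 207 CPM in WT. Border macrophage markers (5, without Lyve1) summed to 498 to 814 CPM and 446 to 875 CPM, and 8 endothelial and mural markers to 46.6 to 66.7 CPM and 37.0 to 58.1 CPM. The 12 proliferation genes also all had a lower mean in KO (median −0.11, 0 past the threshold, 381 to 684 CPM against 482 to 631 CPM). The part of these transcripts in the results below was not tested. In bulk RNA, fewer cells of a type and less RNA per cell cannot be told apart.

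Electrons from NADH enter the chain at complex I and those from succinate at complex II, pass through ubiquinone to complex III, travel on the small protein cytochrome c to complex IV and end on oxygen, and the proton gradient built on the way drives ATP synthase, complex V. Most subunits are encoded in the nucleus, while the mitochondrial chromosome encodes hydrophobic core subunits of every complex but the second, so that the chain needs transcripts of both genomes. Microglia use both this route and glycolysis, and cytochrome c released from mitochondria is also known as a trigger of apoptosis.

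Of the 13 mitochondrial genes, 6 had almost no counts, and these 6 lie side by side. Levels of different genes are given as CPM per kilobase of exon, from each library's total count, averaged over 14 libraries. The highest was mt-Co1, the catalytic subunit of complex IV, at 3260 ± 75.5 (SD over 14 libraries), followed by the complex I subunit mt-Nd1 at 1320 ± 95.6 and the cytochrome b gene mt-Cytb of complex III at 1190 ± 88.5. The complex I subunits mt-Nd5, mt-Nd6, mt-Nd2 and mt-Nd4 had 861 ± 50.5, 801 ± 39.2, 708 ± 54.8 and 422 ± 29.1.

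The stretch from mt-Co2 to mt-Nd4l on chromosome M differed from its surroundings. The complex IV subunits mt-Co2 and mt-Co3 had 0.546 ± 0.109 and 1.82 ± 0.176 (SD over 14 libraries), the ATP synthase subunits mt-Atp6 and mt-Atp8 had 0.574 ± 0.218 and 0.67 ± 0.344, and the complex I subunits mt-Nd3 and mt-Nd4l had 13.3 ± 1.91 and 3.83 ± 0.733. Levels of the other 7 genes were thus at least 31.7 times those of these 6, and mt-Co1 had 5970 times the level of mt-Co2, its partner in the same complex. In counts, mt-Co2 had 11 to 26 reads per library and mt-Co1 had 199807 to 242839. The 7 well covered genes held 99.93% of all counts on the mitochondrial members, and mt-Co1 alone held 45.9%.

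The mouse nuclear genome holds a copy of this stretch, annotated as 7 pseudogenes on the reverse strand of chr1:24611535-24616197 (GRCm38). Every possible read-length window of 150 bases was compared between each member and the transcripts of all other annotated genes. Exact matches in another gene were found for 99.4% of the windows of mt-Co2, 99.4% of mt-Atp6, 99.8% of mt-Co3, 97.0% of mt-Nd3 and 98.0% of mt-Nd4l. The shares were 59.2% for mt-Nd4 and 23.6% for mt-Co1, which border the stretch, and 0.0% for mt-Nd1, mt-Nd2, mt-Nd5, mt-Nd6 and mt-Cytb. For mt-Atp8 no annotated copy was found (0.0%), although its neighbours mt-Co2 and mt-Atp6 match the pseudogenes Gm28661 and Gm10925, which lie 233 bases apart.

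To show how close the copies are, the complex I gene mt-Nd4l is printed below from its first base (chrM:9877-10170, forward strand, GRCm38, protein-coding exon). Over all 294 bases its copy Gm10222 (chr1:24612407-24612700, reverse strand) has the same letters, so a read from either fits both.
mt-Nd4l: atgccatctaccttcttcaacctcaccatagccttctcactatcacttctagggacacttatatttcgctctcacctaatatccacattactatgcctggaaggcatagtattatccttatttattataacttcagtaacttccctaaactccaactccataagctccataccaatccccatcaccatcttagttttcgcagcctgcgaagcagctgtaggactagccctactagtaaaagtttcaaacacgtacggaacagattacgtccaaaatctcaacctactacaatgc

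The upstream end of the copied stretch lies inside mt-Co1. The bases where the copy begins are shown for the gene (chrM:6381-6440, forward strand) and for its copy Gm29216 (chr1:24616138-24616197, reverse strand, GRCm38), with the bases that differ in capitals.
mt-Co1: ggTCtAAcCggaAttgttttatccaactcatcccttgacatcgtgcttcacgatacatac
Gm29216: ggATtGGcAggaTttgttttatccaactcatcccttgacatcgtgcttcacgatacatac
Counted from the first base of mt-Co1, the differences are T1056A, C1057T, A1059G, A1060G, C1062A and A1066T, after which the remaining aligned bases of the gene are identical. The part before this point is not in the copy, and mt-Co1 kept the highest level of all members. In mt-Nd3 a single base differs over 345 aligned bases, T3C.

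The 7 pseudogenes themselves took 94 to 152 reads per library together, and the 6 mitochondrial genes took 273 to 415 reads. Neither carried counts near those of the neighbouring genes. Whether reads that fit both places were left uncounted was not tested, and the handling of such reads is not given in the sources used here. The same holds for the shared windows of mt-Nd4 (59.2%) and mt-Co1 (23.6%). How far their levels, and the ratios and shares built on them, are affected was not tested. Since the 6 genes were measured on few reads, their KO and WT values below say little about the transcripts.

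**Figure D1:**
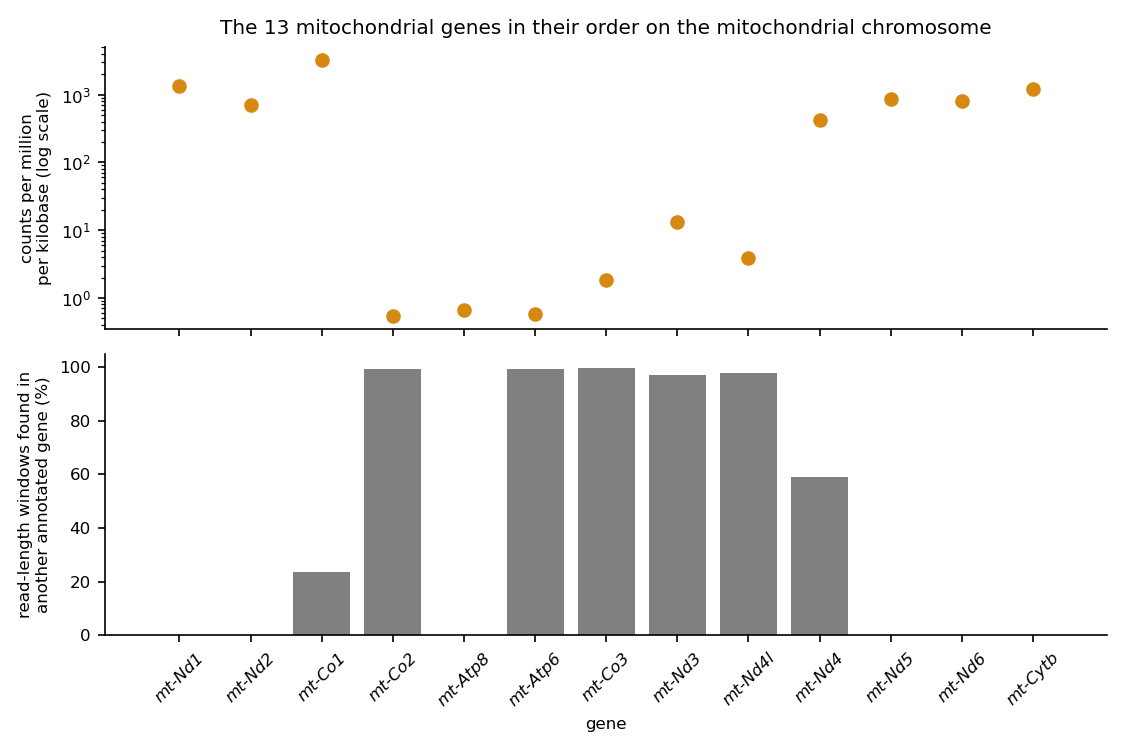
The upper panel plots the level of each of the 13 mitochondrial genes (CPM per kilobase of exon, mean of 14 libraries, log scale) in chromosomal order. The lower panel plots the percentage of 150-base windows that match another annotated gene exactly. Levels drop from 3260 at mt-Co1 to 0.546 at mt-Co2, stay low to mt-Nd4l (3.83) and return to 422 at mt-Nd4, and the windows of 5 of these 6 low genes are shared at 97.0% or more.

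Levels of the nuclear members were compared per kilobase of exon in the same way. The median over the 64 nuclear members that passed was 33.5 CPM per kilobase, against 422 to 3260 for the 7 well covered mitochondrial genes. By complex the medians were 26.5 for the 35 nuclear subunits of complex I, 50.5 for the 4 of complex II, 40.9 for the 9 of complex III and 51.0 for the 15 of complex IV.

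Within complex I the highest level was that of the accessory subunit Ndufa2 (85.1 ± 3.10, SD over 14 libraries) and the lowest that of the accessory subunit Ndufb2 (3.09 ± 0.173). The low value of Ndufb2 goes with annotated exons of 5628 bases in all. Ndufs1, the largest iron-sulfur subunit, had 9.34 ± 0.356. Taking the longest transcript in place of all exons, Ndufs1 had 28.4, since its exons sum to 8086 bases and its longest transcript to 2661, and the median of the nuclear members became 44.4.

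In complex II the membrane anchor Sdhd had the highest level, 64 ± 2.32 (lowest library 60.6, highest 68.0). The flavoprotein Sdha had 56.7 ± 1.21 (54.7 to 59.3), the iron-sulfur subunit Sdhb 44.2 ± 1.06 (42.1 to 45.6) and the other anchor, Sdhc, 32.8 ± 0.804 (31.5 to 34.0). These ranges over libraries do not overlap, but the order depends on the gene length used. By the longest transcript Sdha (80.6) and Sdhb (80.3) came before Sdhd (64) and Sdhc (33.6).

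In complex III levels ran from 29.9 ± 0.856 for the core protein Uqcrc2 to 58.5 ± 2.38 for the small subunit Uqcrb. The Rieske iron-sulfur protein Uqcrfs1 had 42.5 ± 1.65 and cytochrome c1, Cyc1, had 34.2 ± 1.19. Uqcrb, Uqcr11 (56.8 ± 3.64) and Uqcr10 (54.9 ± 3.56) have library ranges that overlap, as do Uqcrc2 (28.0 to 31.1) and Uqcrq (28.9 to 33.5). By the longest transcript Uqcrq (37.3) came below Uqcrc2 (40.3). Cytochrome c itself, Cycs, had 13.6 ± 0.692.

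In complex IV the subunits with a tissue-restricted relative could be split by form. The 4 highest nuclear members were Cox6a1 (208 ± 5.63), Cox4i1 (194 ± 4.51), Cox8a (173 ± 5.40) and Cox6b1 (131 ± 3.70), all of them the broadly expressed form of a pair. The ranges over libraries of Cox6a1 (197 to 216) and Cox4i1 (185 to 202) overlap. By the longest transcript Cox4i1 (393) came before Cox6a1 (236).

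The tissue-restricted forms were counted at a small share of their pair or hardly at all. Cox4i2, a form known from lung, had 4 to 17 counts per library, a share of 0.106% ± 0.0409 of its pair per kilobase in KO and 0.137% ± 0.0677 in WT (SD, n = 7). The muscle form Cox6a2 made up 1.77% ± 0.412 and 1.66% ± 0.204, and the muscle form Cox7a1, beside Cox7a2, 3.33% ± 0.619 and 3.21% ± 0.345. Cox8b, a muscle form, had 0 to 3 counts per library, and 5 of 14 libraries had 0. Cox8c and Cox7b2 had 0 counts in all 14 libraries. If 3 counts are taken as the limit that 0 allows in a library, their shares of the pair with Cox8a and with Cox7b were at most 0.101% and 0.365%, limits that cover counting error only. Ndufa4l2, a hypoxia-induced relative of Ndufa4, had 0 to 4 counts, with 0 in 3 libraries.

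**Figure D2:**
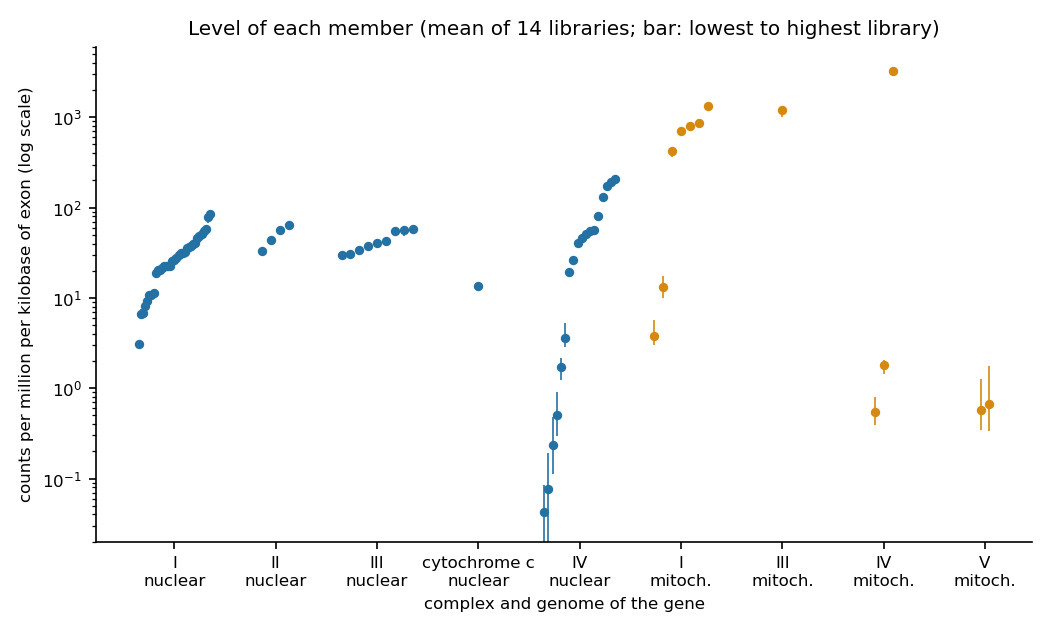
Each point is a member, at its level in CPM per kilobase of exon (mean of 14 libraries, log scale), by complex and by genome (blue nuclear, orange mitochondrial), and the bar runs from the lowest to the highest library. Bars that reach 0 end at the axis, and Cox7b2 and Cox8c, at 0, are not drawn. The nuclear members of complex III lie between 29.9 and 58.5, while those of complex IV reach from the tissue forms, at 3.63 (Cox6a2) and below, up to 208 (Cox6a1).

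KO was then compared with WT gene by gene, the question being whether loss of TIMP2 changes expression of the chain. For modules of genes that vary together, the paper lists cellular respiration among the terms of its Magenta module, described as downregulated in KO. That module analysis modeled batch and was not repeated here. No member passed the threshold. In edgeR, 0 of the 76 members had an adjusted p under 0.05, where 3 of all 15700 genes (0.0191%) had. At an unadjusted p under 0.05 there were 0 members higher in KO, against 1.75% of all genes, and 2 members lower in KO, Cycs and Cox6b2, against 1.62% of all genes. DESeq2 called 1 member, Cycs, and 0.0955% of all genes.

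The intervals were narrow. Of the 64 nuclear members, 61 had a mean above 10 CPM in both genotypes combined, and their log2 fold changes lay between −0.12 and 0.06 with standard errors of 0.0213 to 0.061. Their 95% intervals together ran from −0.16 to 0.13, and 60 of the 61 included 0. The KO mean of these genes was between 92.3% and 104% of the WT mean.

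By complex, the median log2 fold change of the nuclear members was −0.01 for complex I, 0.003 for complex II, −0.02 for complex III and −0.01 for complex IV, beside 0.002 over all genes tested. Log2 fold changes above 0 were found for 16 of 35 nuclear members in complex I, 3 of 4 in complex II, 2 of 9 in complex III and 7 of 15 in complex IV. Over the nuclear members it was 28 of 64 (43.8%), against 50.8% of all genes. This split depended on the scaling, since with upper-quartile factors 16 of 64 (25.0%) were higher, with 43.0% of all genes and an all-gene median of −0.01. With these factors 1 of the 4 members of complex II was higher in KO.

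**Figure D3:**
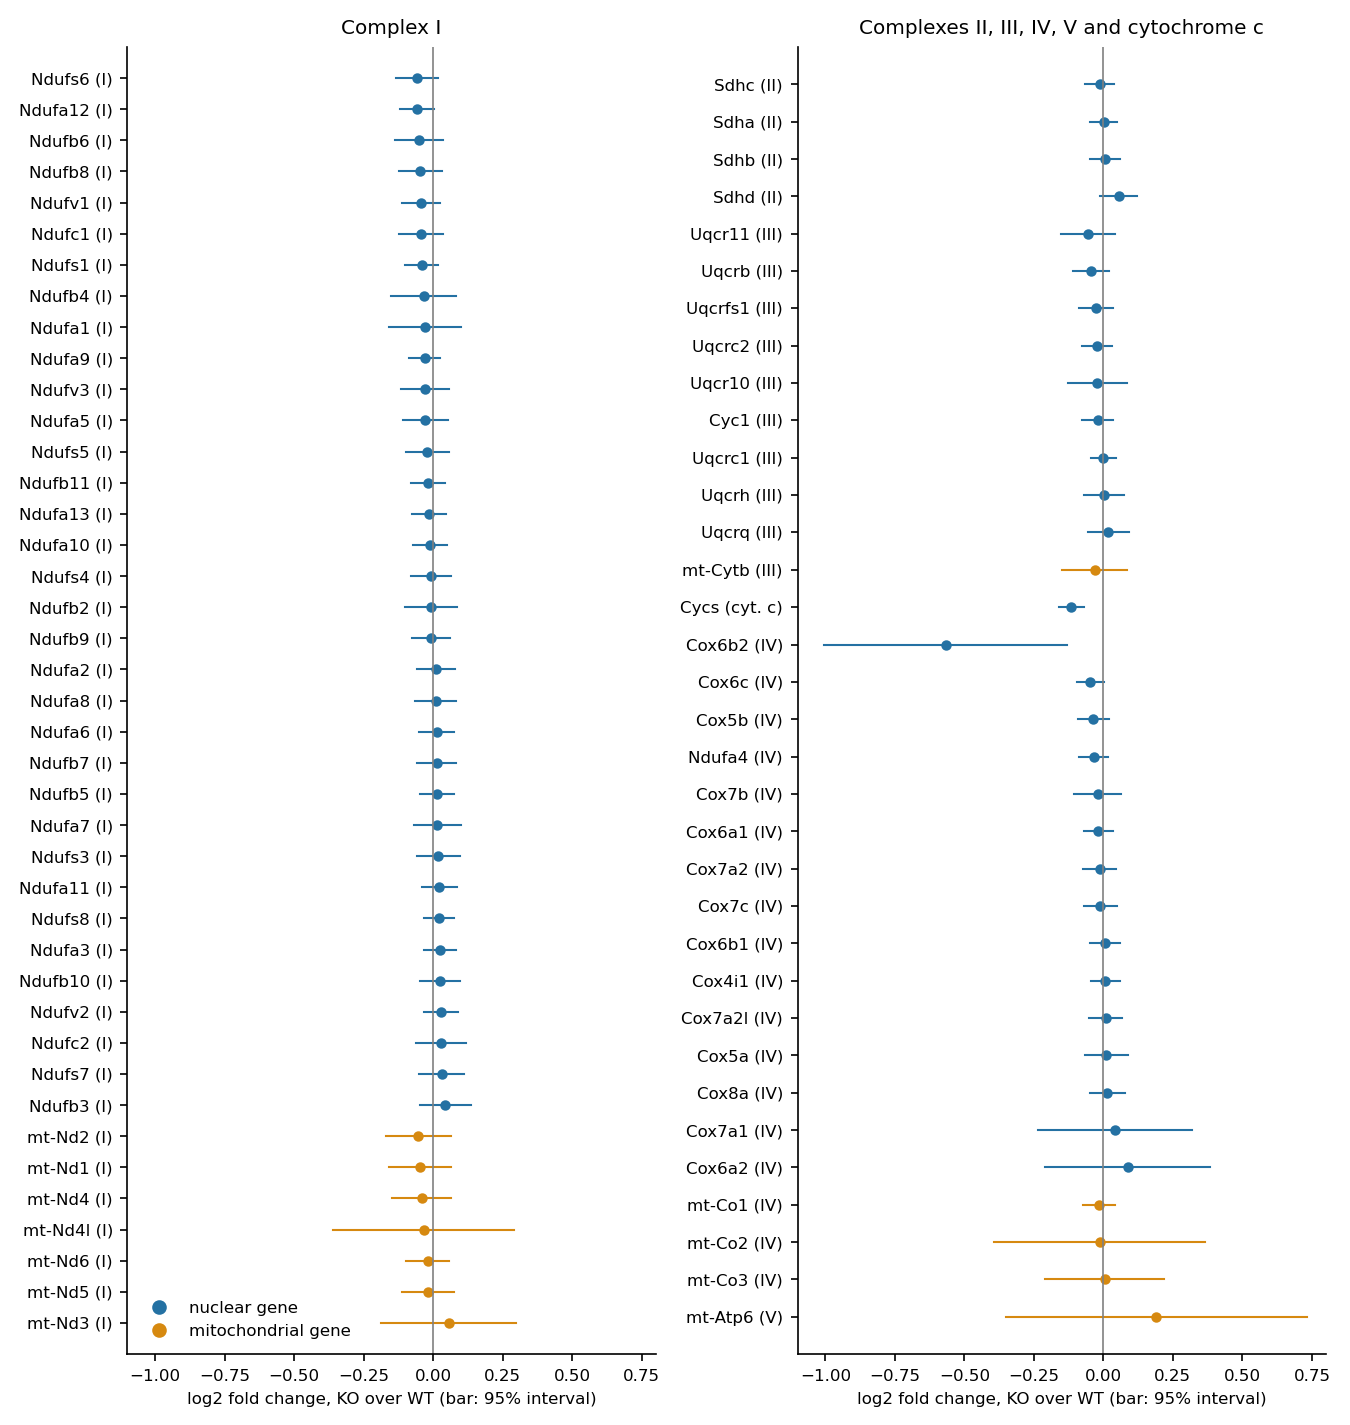
Log2 fold change of KO over WT for the members that passed the filter and are reported by name, by complex, with 95% intervals from edgeR as bars (blue nuclear, orange mitochondrial, 7 libraries per genotype). Of the intervals, those of Cycs (−0.16 to −0.07) and Cox6b2 (−1.005 to −0.13) do not include 0, and all others do.

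Cycs (ENSMUSG00000063694, reverse strand, chr6:50562563-50566538) encodes the mobile carrier between complexes III and IV. Its KO libraries 1 to 7 had 44.9, 43.6, 45.2, 43.5, 44.4, 43.9 and 45.1 CPM. The WT libraries had 46.9, 48.6, 46.1, 48.7, 49.5, 48.2 and 48.5 CPM. The KO libraries all lay below the WT libraries, a pattern that 12 of the 15700 genes (0.0764%) showed in this direction, with Cycs the only member among them.

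The mean of Cycs was 44.4 ± 0.727 CPM in KO and 48.1 ± 1.17 CPM in WT (SD, n = 7), so that KO had 92.3% of WT. The log2 fold change was −0.12 (SE 0.0215, 95% interval −0.16 to −0.07), with an unadjusted p of 7.89e-05 and an adjusted p = 0.218 from edgeR. It is the member with the smallest p of 76, and 5 of all genes had a p as small. In DESeq2 the adjusted p was 0.00252, and this call was lost when the DESeq2 model also held the replicate number as a block (adjusted p = 0.322). Leaving out 1 library at a time moved the log2 fold change between −0.13 and −0.11 and the adjusted p from edgeR between 0.157 and 0.674.

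Windows shared with other genes made up 21.8% of those of Cycs, with the copies Gm10053, Gm10108 and Gm13772. These copies took at most 14 counts in a library. Cyct, the testis form of cytochrome c, had 0 to 4 counts per library, against 1761 to 2253 for Cycs. Of its neighbours in the chain, Cyc1, which hands electrons to it, had 73.3 ± 2.94 CPM in KO and 74.3 ± 1.40 CPM in WT (log2 fold change −0.02, SE 0.0263), and mt-Co1, in the complex that takes them up, had −0.02 (SE 0.0272). Differences between genes were not tested.

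Cox6b2, the testis form of a complex IV subunit, was the other member at an unadjusted p under 0.05. Its KO libraries had 0.638, 0.46, 0.425, 0.332, 0.444, 0.419 and 0.404 CPM. The WT libraries had 0.445, 0.712, 0.659, 1.01, 0.615, 0.789 and 0.415 CPM. The groups overlap, with 3 WT libraries inside the range of the KO values and 5 KO libraries inside that of the WT values. The log2 fold change was −0.57 (SE 0.205, unadjusted p = 0.0145, adjusted p = 0.943 from edgeR), on 14 to 42 counts per library. Per kilobase, Cox6b2 made up 0.306% ± 0.0601 of its pair with Cox6b1 in KO and 0.454% ± 0.13 in WT (SD, n = 7), and the abundant form Cox6b1 had 92.9 ± 2.55 CPM and 92.6 ± 2.76 CPM.

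**Figure D4:**
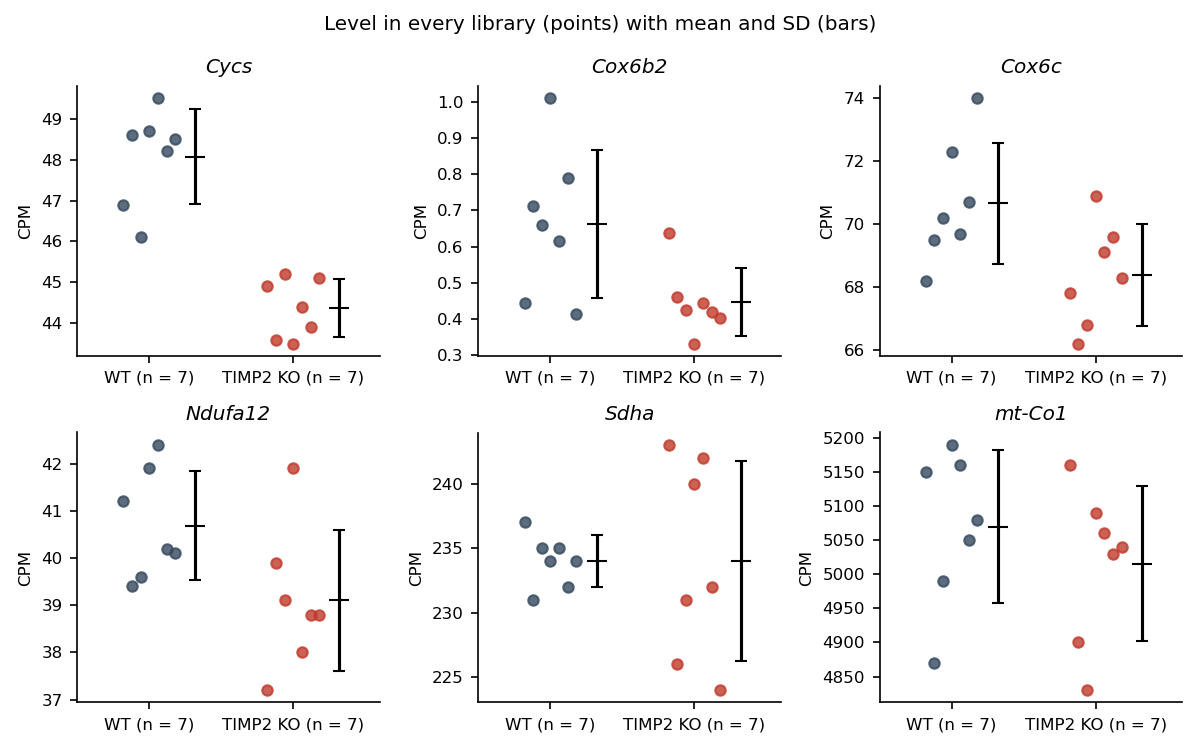
CPM of 6 members in each library (points, 7 per genotype) with mean and SD (bars), each panel on its own axis that does not start at 0. Only for Cycs do the points of KO (43.5 to 45.2) and WT (46.1 to 49.5) stay apart, while those of Cox6b2, Cox6c, Ndufa12, Sdha and mt-Co1 overlap.

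In complex I, the 3 members with the smallest p among those lower in KO were Ndufa12, Ndufs6 and Ndufs1. The accessory subunit Ndufa12 had 39.1 ± 1.5 CPM in KO and 40.7 ± 1.15 CPM in WT (log2 fold change −0.06, unadjusted p = 0.0627 from edgeR). Ndufs6, a zinc-binding accessory subunit, had 24.1 ± 0.854 CPM and 25.1 ± 1.18 CPM, and Ndufs1 had 74.4 ± 3.03 CPM and 76.7 ± 2.03 CPM. Among those higher in KO the smallest p values were those of the accessory subunits Ndufb3 (23.0 ± 1.33 CPM and 22.3 ± 1.10 CPM) and Ndufa3 (32.6 ± 1.18 CPM and 32 ± 0.782 CPM) and of the core subunit Ndufv2 (49.3 ± 1.65 CPM and 48.3 ± 1.66 CPM). None of these 6 came near the threshold, each with an adjusted p of 0.943 from edgeR.

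The catalytic core of complex I gave values on both sides. Ndufv1, which binds NADH, had 55.7 ± 1.89 CPM in KO and 57.5 ± 2.70 CPM in WT (log2 fold change −0.05, SE 0.0323). Of the subunits that carry electrons towards ubiquinone, Ndufs7 had 54.5 ± 2.82 CPM and 53.4 ± 2.47 CPM (0.03, SE 0.0373), and Ndufs8 had 47.7 ± 1.31 CPM and 46.9 ± 1.39 CPM (0.02, SE 0.0253). None of these differences was larger than the spread between libraries.

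Complex II, the only one with no mitochondrial gene, had Sdha at 234 ± 7.56 CPM in KO and 234 ± 2.32 CPM in WT. The KO libraries of Sdha spanned 224 to 243 CPM and the WT libraries 231 to 237 CPM, so the WT values lay within the range of the KO values. Sdhb had 99.2 ± 3.43 CPM and 98.8 ± 2.55 CPM, and Sdhc had 106 ± 3.55 CPM and 107 ± 2.22 CPM. Sdhd had the smallest p of the 4, with 80.4 ± 3.78 CPM in KO and 77.4 ± 2.39 CPM in WT (log2 fold change 0.06, SE 0.0314, adjusted p = 0.943 from edgeR), and its KO libraries (74.3 to 84.7 CPM) overlapped those of WT (74.8 to 80.2 CPM).

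In complex III the log2 fold changes ran from −0.06 for Uqcr11 (35.7 ± 2.48 CPM in KO and 37.1 ± 1.76 CPM in WT) to 0.02 for Uqcrq (57.2 ± 2.72 CPM and 56.5 ± 2.38 CPM). Uqcrb, known as the ubiquinone-binding protein, had 50.5 ± 2.26 CPM and 52.1 ± 1.41 CPM (−0.05, SE 0.0301). Uqcrfs1 had 57.4 ± 1.12 CPM and 58.4 ± 2.67 CPM, Uqcrc2 had 75.8 ± 2.64 CPM and 77.0 ± 1.91 CPM, and Uqcrh, the hinge protein, had 50.7 ± 2.47 CPM and 50.6 ± 1.98 CPM. Uqcrq and Uqcr10 (31.9 ± 1.85 CPM in KO and 32.3 ± 2.39 CPM in WT) lie on chromosome 11, which also holds Timp2, and both had an unadjusted p above 0.6 from edgeR.

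In complex IV, Cox6c had 68.4 ± 1.62 CPM in KO and 70.6 ± 1.92 CPM in WT (log2 fold change −0.05, SE 0.0231, unadjusted p = 0.0595, adjusted p = 0.943 from edgeR). Its KO libraries (66.2 to 70.9 CPM) and WT libraries (68.2 to 74.0 CPM) overlapped. The zinc-binding subunit Cox5b had 85.5 ± 2.07 CPM and 87.7 ± 3.23 CPM, and Ndufa4, once counted in complex I and now placed in complex IV, had 63.3 ± 2.24 CPM and 64.9 ± 1.23 CPM. The broadly expressed forms Cox4i1 (301 ± 10.0 CPM and 300 ± 5.32 CPM), Cox6a1 (146 ± 3.55 CPM and 147 ± 4.40 CPM), Cox7a2 (47.9 ± 1.46 CPM and 48.4 ± 1.72 CPM) and Cox8a (108 ± 4.17 CPM and 107 ± 3.38 CPM) had log2 fold changes between −0.02 and 0.01. Cox7a2l had 118 ± 3.35 CPM in KO and 118 ± 4.65 CPM in WT. The muscle forms Cox6a2 (2.55 ± 0.611 CPM and 2.40 ± 0.255 CPM) and Cox7a1 (0.934 ± 0.158 CPM and 0.908 ± 0.0986 CPM) had wide intervals, −0.21 to 0.38 and −0.24 to 0.32 in log2 fold change.

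Over the 12 mitochondrial genes that passed, the median log2 fold change was −0.02, and it was above 0 for 3. Of the 7 well covered genes all 7 had a lower mean in KO, with log2 fold changes between −0.05 for mt-Nd2 (722 ± 47.2 CPM in KO and 749 ± 61.2 CPM in WT) and −0.02 for mt-Co1 (5010 ± 113 CPM and 5070 ± 111 CPM), each smaller than its standard error, and without KO replicate 3 that of mt-Nd5 was 0.004. Of the 7, all but mt-Nd6 (reverse strand) are cut from shared precursors, so they are not independent of each other. Nor can mt-Nd6 be read as a separate measurement. Its lowest and highest libraries in each genotype were also those of mt-Nd4 and mt-Nd5. The strand setting of the counting is not given, and whether the mt-Nd6 counts come from its own strand was not tested. The smallest p of the 12 was 0.336, that of mt-Nd2 (SE 0.0546). The values of mt-Nd1 were 1240 ± 63.8 CPM and 1280 ± 108 CPM, those of mt-Nd4 573 ± 40.7 CPM and 590 ± 35.1 CPM, those of mt-Nd5 1560 ± 95 CPM and 1580 ± 80.1 CPM, those of mt-Nd6 413 ± 19.1 CPM and 419 ± 19.2 CPM, and those of mt-Cytb 1350 ± 104 CPM and 1380 ± 92.4 CPM.

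The poorly counted mitochondrial genes gave only wide intervals. The log2 fold change was 0.06 for mt-Nd3 (SE 0.114), −0.03 for mt-Nd4l (SE 0.153), −0.01 for mt-Co2 (SE 0.178), 0.004 for mt-Co3 (SE 0.0998) and 0.19 for mt-Atp6 (SE 0.253, 95% interval −0.35 to 0.73). The positive value of mt-Atp6 rests on KO replicate 1, which had 0.842 CPM where the other KO libraries had 0.236 to 0.46 CPM, and without that library it was −0.07. mt-Atp8 did not pass the filter, with 3 to 14 counts per library.

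The share of each library's counts on the mitochondrial genes was 1.01% to 1.16% in KO and 1.05% to 1.16% in WT, and the share on the nuclear members 0.374% to 0.394% and 0.379% to 0.397%. Since the 6 poorly counted genes added almost nothing, the mitochondrial share describes the other 7. To see whether members moved together, the log2 CPM of each gene was taken relative to its mean over all libraries and averaged. For the 64 nuclear members, these averages in KO replicates 1 to 7 were 0.02, −0.02, −0.02, 0.02, 0.002, −0.01 and −0.06. In WT they were 0.01, −0.03, −0.03, 0.04, 0.03, 0.01 and 0.03. The ranges of the genotypes overlap, with KO replicate 7 lowest and WT replicate 4 highest.

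For the 7 well covered mitochondrial genes the averages were wider, from −0.14 in KO replicate 3 to 0.08 in KO replicate 1, and from −0.12 in WT replicate 5 to 0.08 in WT replicate 6. Libraries low in one genome's genes were not always low in those of the other. In WT replicate 5 the nuclear average was 0.03 and the mitochondrial one −0.12, and in KO replicate 7, the lowest in the nuclear average (−0.06), the mitochondrial average was −0.004. The low average of WT replicate 5 does not hold for mt-Co1, which had 5160 CPM there against a WT mean of 5070 CPM. The other well covered mitochondrial genes had their lowest WT value in that library.

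**Figure D5:**
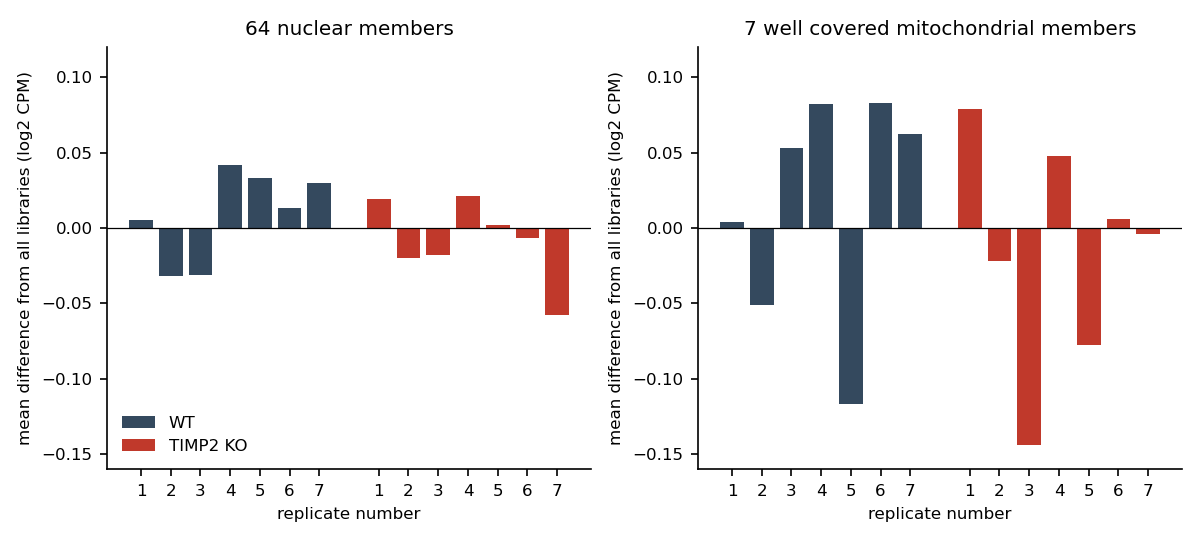
Mean difference from the average of all 14 libraries, in log2 CPM, over the 64 nuclear members (left) and over the 7 well covered mitochondrial members (right), for each WT (dark) and TIMP2 KO (red) library by its replicate number. Nuclear averages stay between −0.06 and 0.04 and mitochondrial ones between −0.14 and 0.08, with both genotypes on both sides of 0.

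Nuclear members varied little between libraries of a genotype. The median SD of log2 CPM within genotype was 0.0552 over the 64, with a range from 0.0301 for Cycs to 0.36 for Cox6b2. For 6418 tested genes of comparable level (13.3 to 142 CPM, the 5th to 95th percentile of the nuclear members) it was 0.0794, and over all genes 0.145. Cycs thus had the smallest spread of all nuclear members. The mitochondrial members had a median of 0.108.

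Genes that build, supply or regulate the chain were examined from lists chosen with earlier results of these data known, and 0 genes of these lists passed the threshold in edgeR. Over all tested genes, 1.75% were higher and 1.62% lower in KO at an unadjusted p under 0.05, and 50.8% had a log2 fold change above 0, and the counts of each list stand beside these shares without a test. Of 41 assembly factors, 2 were higher and 2 lower in KO at an unadjusted p under 0.05, and 27 had a log2 fold change above 0 (median 0.01). They included Uqcc2, needed to assemble complex III, with 19.6 ± 0.763 CPM in KO and 21.1 ± 0.780 CPM in WT (−0.10, unadjusted p = 0.00795, adjusted p = 0.943 from edgeR), and Coa4, a complex IV factor, with 11.4 ± 0.721 CPM and 10.5 ± 0.743 CPM (0.13, unadjusted p = 0.041).

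Of 20 genes for maintenance and expression of mitochondrial DNA, 0 had an unadjusted p under 0.05 from edgeR, and 12 had a higher mean in KO (median 0.02). The smallest p values were those of the elongation factor Tefm (6.76 ± 0.418 CPM and 6.28 ± 0.237 CPM) and the DNA polymerase Polg (149 ± 10.4 CPM and 142 ± 8.07 CPM). Of 13 regulators of mitochondrial biogenesis 1 was higher at an unadjusted p under 0.05, the mitochondrial deacetylase Sirt3, with 6.44 ± 0.461 CPM in KO and 5.69 ± 0.675 CPM in WT (0.18, unadjusted p = 0.0386 from edgeR). The transcription factor Nrf1 had 35.0 ± 1.19 CPM and 33.4 ± 1.34 CPM (0.06, unadjusted p = 0.056). The median of the regulators was −0.01, with 6 of 13 higher.

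The 16 nuclear subunits of ATP synthase, the complex that uses the proton gradient, had a median of −0.02, and 3 of them had a higher mean in KO. The smallest p values belonged to Atp5k (27.5 ± 0.468 CPM in KO and 28.6 ± 1.18 CPM in WT) and the catalytic beta subunit Atp5b (618 ± 30.3 CPM and 634 ± 17.0 CPM), and 0 had an unadjusted p under 0.05 from edgeR. Among 18 enzymes of the tricarboxylic acid cycle, which feeds NADH and succinate into the chain, the median was −0.02, and 4 had a log2 fold change above 0. At an unadjusted p under 0.05, 0 were higher in KO and 1 was lower, from edgeR. This was Dld, a subunit shared by several dehydrogenases, with 85.0 ± 1.87 CPM in KO and 89.3 ± 2.77 CPM in WT (−0.07, unadjusted p = 0.00865, adjusted p = 0.943 from edgeR). Idh3a came next, with 35.6 ± 3.15 CPM and 37.9 ± 1.85 CPM.

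Promoters of the nuclear members were searched for letters bound by factors known to act on respiratory genes. RefSeq windows from 250 bases before to 50 bases after the start site (GRCm38.p6) were found for 52 of the 64 nuclear members that passed. Motifs were searched on both strands without mismatch. The NRF1 motif GCGCATGCG was in 11.5% of the member windows (6 of 52), against 3.9% of tested genes and 2.0% of all promoter windows. The GABP/ETS motif CCGGAAGT was in 7.7% (4 of 52) against 8.6% and 4.3% (with 1 mismatch allowed, 46.2% of the members against 38.0% of tested genes), and the YY1 motif AAGATGGCG in 9.6% (5 of 52) against 3.3% and 1.6%. At least 1 of the 3 was in 14 members (26.9%) and in 14.9% of tested genes. No motif contains another, and the NRF1 letters can match both strands at nearly the same place.

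Members with the NRF1 letters were Cox6a1, Cycs, Ndufa11, Ndufa8, Uqcr11 and Uqcrc1, and their log2 fold changes ran from −0.12 (Cycs) to 0.02, with 2 of 6 higher in KO. The stretch before the start site of Cycs is shown in full, as the member with the smallest p, and 30 bases around the match for others that hold it before the start site, with the matching letters in capitals. Positions are chr6:50566570-50566819 (reverse strand) for Cycs, chr5:115349101-115349130 (reverse) for Cox6a1, chr17:56717692-56717721 (forward) for Ndufa11 and chr2:36049339-36049368 (reverse) for Ndufa8, in GRCm38.p6.
Cycs: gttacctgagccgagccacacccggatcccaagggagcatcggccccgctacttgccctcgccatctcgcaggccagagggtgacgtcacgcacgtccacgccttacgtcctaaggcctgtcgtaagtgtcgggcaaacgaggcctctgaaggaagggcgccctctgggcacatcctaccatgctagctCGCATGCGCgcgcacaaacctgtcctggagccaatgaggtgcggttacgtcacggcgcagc
Cox6a1: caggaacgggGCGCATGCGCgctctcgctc
Ndufa11: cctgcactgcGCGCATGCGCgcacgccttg
Ndufa8: gcgcttgcgcgtcgctggagaCGCATGCGC
The match begins 61 bases before the start site in Cycs, 162 in Cox6a1, 60 in Ndufa11 and 9 in Ndufa8. Of these 4, Cycs is the one whose KO and WT libraries did not overlap, and a match says nothing about binding in these cells.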

How the data were processed

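RNA from 14 cultures of primary microglia (7 TIMP2 KO, 7 WT) was sequenced by the authors as 150 bp paired-end reads from poly(A)-selected libraries. Per the submitters' processing notes, the tools were Trimmomatic 0.36, STAR 2.5.2b and featureCounts of Subread 1.5.2, with GRCm38. The table deposited by the authors holds whole-number counts of reads on each Ensembl gene, with no normalization. Strand setting, treatment of multiply mapped reads and annotation release are not given in the sources used here. The authors modeled batch, which no label gives. No count column was left out (0). Gene names came from GENCODE M21 (49056 of 49315 genes matched).

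Depth was 38875344 to 48070236 counts per library. Low counts were removed by filterByExpr (at least 10, total at least 15), and the rest were scaled by TMM and tested with edgeR 4.0.16 in R 4.3.3 (quasi-likelihood, two-sided, Benjamini-Hochberg over all 15700 genes, threshold 0.05). The SE of a log2 fold change is its size divided by the square root of F, and log2 CPM had a prior count of 1. On simulated data with 15530 genes, edgeR recovered 75 of 100 genes changed by 1 and 67 of 100 changed by 0.5 on the log2 scale, and 7 of 149 calls were false. Each library is a separate pool, so p-values measure the spread between pools. Levels per kilobase are CPM from total counts over the summed exon length.

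Members, lists and tests were chosen with earlier results of these data known. Named genes were all mitochondrial members, in each complex up to 3 nuclear members higher and 3 lower with the smallest p, catalytic and tissue-form subunits, the highest and lowest level per complex, members on chromosome 11, and up to 2 genes per list. 1 member is not reported by name here. Genes named outside the rule were chosen after their values were seen. Replicate numbers were not taken as pairs, on the correlations given in the closing section. Whether some same-numbered libraries shared a batch was not tested. Alternatives were other size factors, no filter, DESeq2 1.42.0, the replicate number as a block, each library left out, the longest transcript, another denominator and 1 mismatch in a motif.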

Additional observations from a re-analysis of the deposited data

Results flagged for a closer look

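Libraries far from the others of their genotype were looked for with Dixon's test (critical value 0.568 for 7 libraries) in 102 groups, of which chance flags about 1 in 20, and 4 were found. KO replicate 5 had 90.0 CPM of Cox5b, above the other KO libraries. KO replicate 1 had 0.638 CPM of Cox6b2 and 0.842 CPM of mt-Atp6, both above the other KO libraries and both at low counts. It also had 59.6 CPM of Uqcrfs1, the highest of the KO libraries.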

How the results depend on the processing

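No called value changed sign under any of the 20 alternative fits, and Timp2 stayed the only result with a call in edgeR among those described, with a log2 fold change between −1.95 and −1.90 when 1 library was left out. DESeq2 called 1 member, Cycs (adjusted p = 0.00252), and DESeq2 with the replicate block called none, with an adjusted p of 0.322 for Cycs. Members lower in KO at an unadjusted p under 0.05 numbered 4 with upper-quartile factors, 1 under DESeq2 with the replicate block and 2 to 4 when 1 library was left out (4 without KO replicate 4 and without WT replicate 2). Members higher in KO numbered 0 to 1, the 1 without KO replicate 7. With upper-quartile factors 16 nuclear members were higher in KO in place of 28, and without 1 library 21 to 32. The median of the mitochondrial members was 0.002 without KO replicate 3, against −0.02. For mt-Atp6 the log2 fold change was −0.072 without KO replicate 1 and at most 0.289 without another library. The longest transcript gave a median nuclear level of 44.4 CPM per kilobase, and 1 mismatch gave motif shares of 38.5% (NRF1), 46.2% (GABP/ETS) and 23.1% (YY1), against 20.1%, 38.0% and 13.0% of tested genes, so that the GABP/ETS letters went from less to more frequent in the members. The cause of these shifts was not tested, except that 1 mismatch admits more letters and a shorter length raises a level per kilobase.

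The replicate number as a block gave 0 calls among the members in edgeR, with a log2 fold change of Cycs of −0.12 (adjusted p = 0.506). Same-numbered KO and WT libraries deviated together with a mean correlation across genes of 0.103 (−0.196 to 0.743, above 0.1 in 3 of 7 pairs), against −0.0156 for other pairs, and 1 of 7 KO libraries correlated best with its own number, so the numbers were not taken as pairs.

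Of 47 named members tested, 16 changed the sign of a log2 fold change under at least 1 alternative, in 67 of 940 values, and 1 of the 16 by more than its standard error. The 6 poorly counted mitochondrial genes had at most 251 counts in any library, and the tissue forms of complex IV that passed the filter at most 153. The batch modeled by the authors and the genotypes were not separated here, since no label names the batch.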
